A study of Mus musculus with 12 samples.

Results

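The hormone-producing cells of the pancreatic islet are built and kept by a small set of transcription factors, and 8 of them were examined here: Foxa2, Neurog3, Rfx6, Pax4, Mnx1, Nkx2-2, Isl1 and Pax6. They were found by taking every probe set of the expression table that the platform annotation assigns to one of these symbols. This gave 13 of the 45037 probe sets tested and covered 7 of the 8 genes: 5 probe sets for Pax6, 2 each for Isl1 and Neurog3, and 1 each for Foxa2, Nkx2-2, Pax4 and Mnx1. No probe set is listed under Rfx6, which was not analysed here.

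The arrays came from 12 untreated tumors, 9 pancreatic tumors (1 to 5 and 9 to 12) and 3 tumors labelled as brain tumors (6 to 8), which the paper places at the pituitary and which are called pituitary tumors below. All were excised from LSL-MYCN;hGFAP-Cre mice. In these double transgenic animals Cre recombinase, under the human GFAP promoter, switches on a human MYCN transgene together with luciferase, so all tumors of both groups carry the same alleles, on a mixed strain background. The sources give no age for the single tumors, and the mice can carry both kinds of tumor, so that some arrays may come from 1 mouse. Which ones is not given, and the tests treat the tumors as independent. Each tumor has 1 array, arrays of normal pancreas were not analysed here, and p-values measure the spread between these tumors.

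In the embryo these factors act in a known sequence. Foxa2 is a forkhead pioneer factor that opens chromatin in the endoderm from which the pancreas buds. Neurog3 is a basic helix-loop-helix factor switched on briefly in the endocrine progenitor, and it turns on Pax4, Rfx6, Nkx2-2, Isl1 and Pax6 directly or through other factors. Pax4 favours the beta and delta cell fates. Nkx2-2, Isl1 and Pax6 remain on in mature islet cells, where they sustain hormone genes. Several of the same factors have second roles elsewhere: Pax6 in eye and brain, Isl1 in motor neurons and in pituitary cells, Mnx1 in motor neurons, Nkx2-2 in the ventral neural tube and oligodendrocytes.

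Promoters are shown for the 4 factors on which the results turn, since their levels moved apart from each other among the tumors. Each run is the RefSeq window of build GRCm38.p6, 5′ to 3′ on the strand of the gene, and spans 250 bases before to 50 bases after the start of transcription. The windows lie at chr2:148046920-148047219 on the minus strand for Foxa2, chr2:147186353-147186652 on the minus strand for Nkx2-2, chr13:116309639-116309938 on the minus strand for Isl1, and chr2:105668646-105668945 on the plus strand for Pax6. Capitals mark motif letters, and for Foxa2 they are the reverse complement of CCAAT.
Foxa2: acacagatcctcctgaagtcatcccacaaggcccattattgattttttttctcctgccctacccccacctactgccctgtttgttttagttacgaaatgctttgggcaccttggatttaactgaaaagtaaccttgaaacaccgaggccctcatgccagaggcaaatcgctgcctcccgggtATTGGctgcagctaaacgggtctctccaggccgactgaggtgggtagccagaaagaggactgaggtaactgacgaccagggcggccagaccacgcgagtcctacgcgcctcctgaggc
Nkx2-2: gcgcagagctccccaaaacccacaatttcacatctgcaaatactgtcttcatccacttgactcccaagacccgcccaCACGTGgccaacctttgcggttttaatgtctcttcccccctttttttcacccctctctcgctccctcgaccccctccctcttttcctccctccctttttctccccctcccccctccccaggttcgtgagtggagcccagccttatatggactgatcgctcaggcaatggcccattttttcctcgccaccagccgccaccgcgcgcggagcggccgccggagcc
Isl1: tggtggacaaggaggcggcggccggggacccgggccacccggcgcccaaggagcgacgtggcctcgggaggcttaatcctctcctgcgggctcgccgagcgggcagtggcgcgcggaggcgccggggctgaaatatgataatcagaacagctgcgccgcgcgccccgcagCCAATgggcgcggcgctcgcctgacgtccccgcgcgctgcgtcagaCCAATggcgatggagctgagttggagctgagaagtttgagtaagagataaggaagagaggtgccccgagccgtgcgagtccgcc
Pax6: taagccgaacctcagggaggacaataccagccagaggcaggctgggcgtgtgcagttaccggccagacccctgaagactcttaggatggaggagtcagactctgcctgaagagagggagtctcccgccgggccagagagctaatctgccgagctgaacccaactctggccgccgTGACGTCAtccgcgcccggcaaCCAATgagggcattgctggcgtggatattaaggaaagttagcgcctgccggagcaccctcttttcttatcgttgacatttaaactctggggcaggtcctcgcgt

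Motifs searched on both strands were the E-box CACGTG, which MYC proteins can bind, the cAMP response element TGACGTCA, the homeobox core TAATTA, the forkhead core TGTTTAC and the CCAAT box. Of 32851 promoter windows of this length, 7.15% hold CACGTG, 1.79% TGACGTCA, 5.29% TAATTA, 3.65% TGTTTAC and 37.4% CCAAT. The Nkx2-2 window has 1 CACGTG beginning 173 bases before the start. The Pax6 window shown has 1 TGACGTCA at 76 and 1 CCAAT at 54 bases before the start. In the Isl1 window CCAAT occurs at 80 and 34 bases before the start, and in the Foxa2 window shown its reverse complement begins 68 bases before it. These are matches of letters only. RefSeq windows were found for 7 of the 8 genes, 10 windows in all, and the other windows are not shown. Pax6 has 1 further window and Foxa2 has 2, none of which holds any of the 5 motifs.

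Values are log2 signals, where 1 unit is a doubling. The array carries no detection call in this table, so the median probe set of each array, which ranged over 5.46 to 5.70 in pancreatic tumors and over 5.54 to 5.61 in pituitary tumors, stands for background. Signals of different probe sets depend on their probes, so levels are not compared between them, and only the change of a gap between probe sets of 1 gene from tumor to tumor is described. The labels were checked with growth hormone (Gh), which lay between 5.64 and 6.27 in pancreatic tumors, against 14.65, 14.80 and 14.87 in pituitary tumors 6, 7 and 8. Of the measured marker genes, 11 of 17 for the anterior pituitary, 5 of 8 for astrocytes, 2 of 9 for oligodendrocytes, 2 of 9 for neurons and 1 of 5 for motor neurons were lower in the pancreatic tumors, and 1 of 10 for acinar cells, 1 of 5 for ducts and 0 of 6 for hepatocytes were higher. By the limma test given below, 4.5% of all genes were lower and 1.61% higher in the pancreatic tumors. Over all probe sets, the correlation between 2 arrays ranged over 0.803 to 0.985 within pancreatic tumors, 0.937 to 0.965 within pituitary tumors and 0.807 to 0.946 across the 2 groups.

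The question of the comparison was which of these islet factors distinguish the pancreatic from the pituitary tumors. In limma with Benjamini-Hochberg adjustment over all probe sets, 3 of the 13 probe sets were higher in the pancreatic tumors, for Foxa2 and both for Isl1, and 0 were lower. At an unadjusted p under 0.05 the counts were 7 and 0, since every difference was above 0. No share over all probe sets is given for that unadjusted threshold. At the adjusted threshold 1.18% of all probe sets were called higher and 3.45% lower. By gene, 2 of 7 were higher, beside 1.61% of 18193 genes called higher and 4.5% called lower. The median difference of the 7 genes was 2.52, beside 0.03 over all genes.

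**Figure D1:**
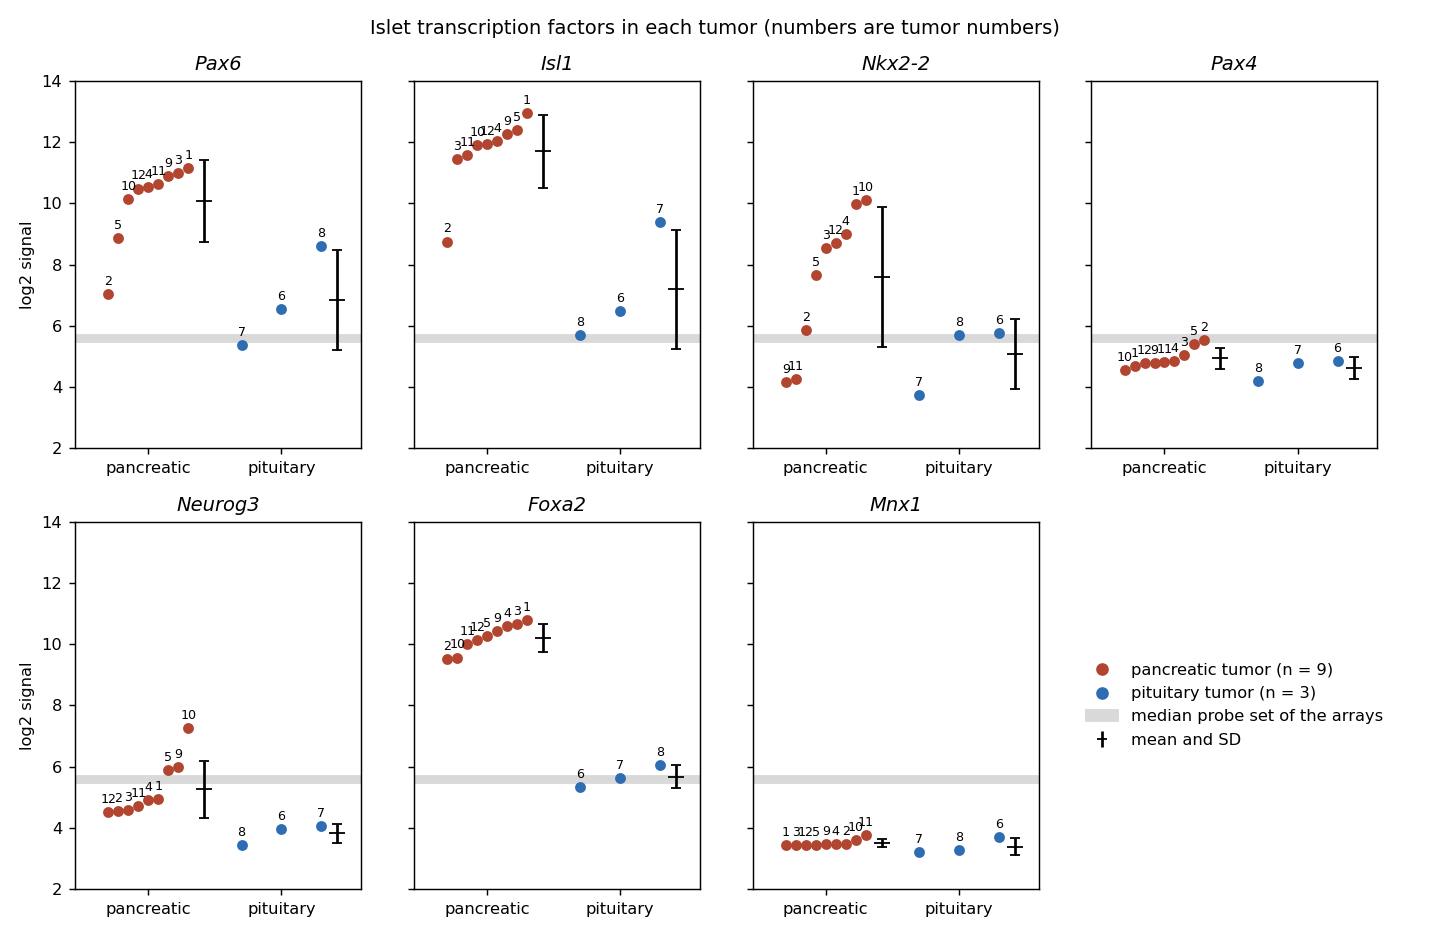
Log2 signal (vertical axis) of 7 islet transcription factors in each pancreatic tumor (red, left, n = 9) and each pituitary tumor (blue, right, n = 3), sorted by value and numbered by tumor, with mean and SD as bars and the range of the median probe set as a grey band. Foxa2 separates the groups, Isl1 and Pax6 overlap only through pancreatic tumor 2, Nkx2-2 spreads from 4.16 to 10.13 among pancreatic tumors, and Pax4 and Mnx1 stay near or below the band.

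Foxa2, the earliest acting of the set, gave the clearest separation. Its signal was 9.52 at the lowest, 10.26 at the median and 10.78 at the highest in the pancreatic tumors, against 5.34, 5.61 and 6.06 in pituitary tumors 6, 7 and 8. All 9 pancreatic tumors lay above all 3 pituitary tumors, with a wide gap between the lowest of the 9 and the highest of the 3. The difference was 4.55 (SE 0.28, 95% confidence interval 3.93 to 5.16), a 23.3-fold higher signal, with adjusted p = 2.14e-06 in limma. An exact two-sided permutation test over all 220 splits of the tumors gave p = 0.00455, the smallest this design allows. The pituitary values lie close to background, so the size of the difference depends on where background lies. Among the 9 pancreatic tumors its SD was 0.46, compared with 1.19 for Isl1 and 1.33 for Pax6. These larger values rested much on tumor 2, without which the SD was 0.40 for Foxa2, 0.47 for Isl1 and 0.72 for Pax6.

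Neurog3, the switch of the endocrine progenitor, was low. At probe set 1432034_at it had 4.51 at the lowest, 4.89 at the median and 7.25 at the highest in the pancreatic tumors, against 3.95, 4.04 and 3.44 in pituitary tumors 6, 7 and 8. Only pancreatic tumors 5, 9 and 10 exceeded the median of their arrays, with 5.88, 5.98 and 7.25. The groups did not overlap, which held higher in the pancreatic tumors for 3.86% of all probe sets and 4.15% of all genes. The difference of 1.44 (SE 0.52, interval 0.31 to 2.58) missed the threshold, with adjusted p = 0.146 in limma, and the exact two-sided permutation test gave p = 0.0318. The other Neurog3 probe set, 1422312_a_at, stayed below background in all 12 tumors, and its highest value, 4.89, was again in pancreatic tumor 10.

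Pax4 and Mnx1, the paired-box factor of the beta and delta lineages and a homeobox factor of the pancreatic bud and of beta cells, did not rise clearly above background in any tumor. Pax4 had 4.54, 4.80 and 5.53 as its lowest, median and highest signal in the pancreatic tumors, against 4.84, 4.79 and 4.20 in pituitary tumors 6, 7 and 8. Its only value above background was that of pancreatic tumor 2. Mnx1 had 3.43, 3.45 and 3.77 in the pancreatic tumors, against 3.69, 3.20 and 3.26 in the pituitary tumors, and lay below background in all 12. The differences were 0.32 for Pax4 (interval -0.16 to 0.81, adjusted p = 0.457 in limma) and 0.12 for Mnx1 (interval -0.17 to 0.40, adjusted p = 0.659). A transcript present at a level these probes do not register would look the same.

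Nkx2-2, a homeobox factor of alpha, beta and PP cells, was the most variable of the set among the pancreatic tumors. It reached 10.13 in tumor 10 and 9.97 in tumor 1, followed by 9.00, 8.71, 8.55 and 7.67 in tumors 4, 12, 3 and 5. Tumor 2, at 5.87, was near background, and tumors 9 and 11, at 4.16 and 4.25, were below it. Pituitary tumors 6, 7 and 8 had 5.77, 3.74 and 5.71. The spread among the pancreatic tumors thus exceeded the group difference, which was 2.52 (SE 1.29, interval -0.29 to 5.32) with adjusted p = 0.310 in limma. In 7 of 9 pancreatic tumors the signal exceeded that of all pituitary tumors, and in 2 of 9 it was below that of pituitary tumors 6 and 8.

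Isl1, a LIM homeobox factor needed for the formation of all islet endocrine cells, was high in the pancreatic tumors at both of its probe sets. At 1450723_at it had 8.76 at the lowest, 11.96 at the median and 12.95 at the highest in the pancreatic tumors, against 6.47, 9.38 and 5.71 in pituitary tumors 6, 7 and 8. The groups overlapped at 1 point, where pancreatic tumor 2 fell below pituitary tumor 7. The difference was 4.51 (SE 0.84, interval 2.69 to 6.34), or 22.8-fold, with adjusted p = 0.00978 in limma and p = 0.00909 in the exact two-sided permutation test. The second probe set, 1422720_at, followed it closely, with 8.02, 11.70 and 12.48 as lowest, median and highest in the pancreatic tumors against 6.22, 8.79 and 5.80 in pituitary tumors 6, 7 and 8. Its difference was 4.39 (SE 0.85) with adjusted p = 0.0129.

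The Isl1 call rested on the 2 pituitary tumors with the lowest signal. Without pituitary tumor 6 or 8 the adjusted p at 1450723_at was 0.0723 or 0.0749, without both it was 0.826 with a difference of 2.32, and without pancreatic tumors 10, 11 and 12 it was 0.0788. Pituitary tumor 7, the one with high Isl1, also differed from the other 2 in markers of other cells. The mean signal over the 17 measured anterior pituitary genes was 5.15 to 5.51 in the pancreatic tumors, against 9.31 in pituitary tumor 7 and 8.04 and 8.01 in pituitary tumors 6 and 8. Cga, the shared subunit of the glycoprotein hormones, was 14.70 there, compared with 11.62 and 11.04, and Tshb, the thyrotropin subunit, was 12.51, compared with 9.31 and 8.20. Glial and neuronal genes ran the other way: 5.64 over 9 oligodendrocyte genes in tumor 7, compared with 9.14 and 8.46 in tumors 6 and 8, 7.12 over 8 astrocyte genes, compared with 11.24 and 11.17, and 5.88 over 9 neuronal genes, compared with 9.77 and 9.40. The GABA enzyme Gad1 was 3.05 in tumor 7 and 11.32 and 12.52 in tumors 6 and 8. The part of these cells in the Isl1 values was not tested. In tumor tissue as a whole, fewer cells of a type and less RNA per cell cannot be told apart.

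Pax6, a paired-box and homeobox factor that drives glucagon and insulin genes, came close to the threshold. At 1419271_at it had 7.03 at the lowest, 10.52 at the median and 11.16 at the highest in the pancreatic tumors, against 6.54, 5.38 and 8.62 in pituitary tumors 6, 7 and 8. In 8 of 9 pancreatic tumors the signal was above that of all pituitary tumors, with tumor 5 at 8.86 next to pituitary tumor 8, and tumor 2 was below pituitary tumor 8. The difference was 3.23 (SE 0.85, interval 1.38 to 5.09), or 9.40-fold, with adjusted p = 0.0523 in limma and p = 0.00909 in the exact two-sided permutation test. Without pancreatic tumor 2 the adjusted p was 0.0057, and with the mean of all 5 probe sets as the value of the gene it was 0.0328. It stayed above the threshold in 9 of the 12 cases of leaving out 1 tumor, reaching 0.206 without pituitary tumor 6, and it was 0.197 without pancreatic tumors 10, 11 and 12. Pax6 and Isl1 thus had different orders in the pituitary tumors: tumor 8 was highest in Pax6 and lowest in Isl1, and tumor 7 was highest in Isl1 and lowest in Pax6. Motor neurons are another known site of Isl1 and Mnx1, besides pituitary cells for Isl1. The motor neuron list of 5 genes averaged 4.02 to 4.46 in the pancreatic tumors and 5.62, 5.24 and 4.86 in pituitary tumors 6, 7 and 8. Its defining enzyme Chat was at or below 4.51, under background, in all 12. The higher mean of the pituitary tumors came mainly from Lhx3, which the anterior pituitary list also holds. Without Lhx3 the mean of the other 4 genes was 3.78 to 4.21 in the pancreatic tumors and 4.67, 3.96 and 4.09 in pituitary tumors 6, 7 and 8.

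**Figure D2:**
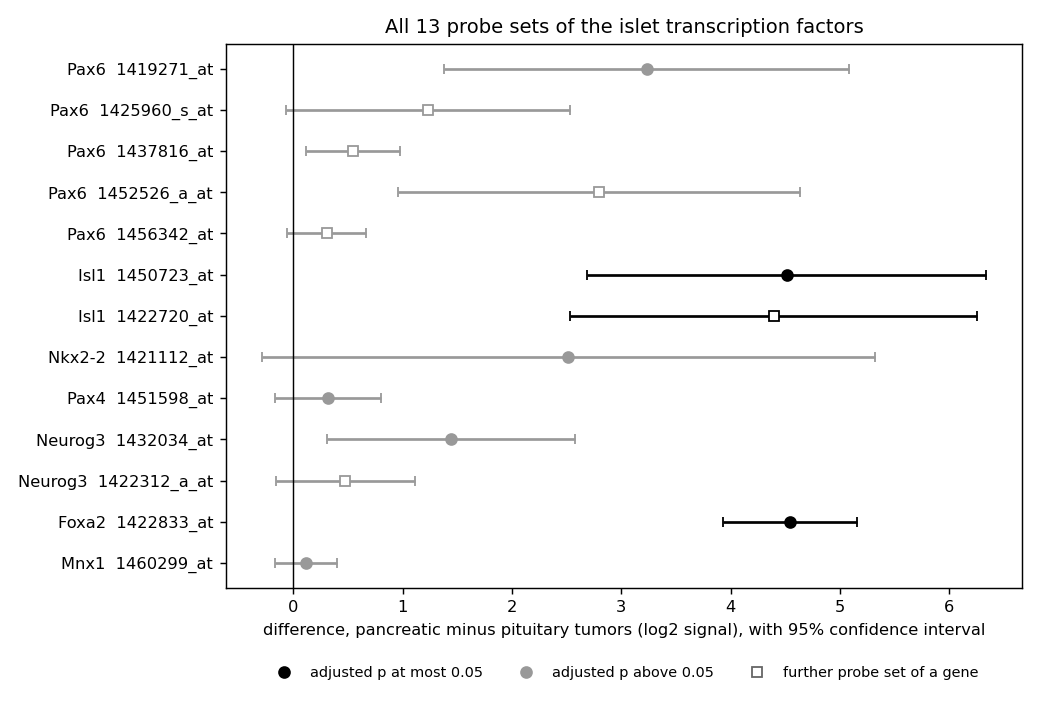
Difference in log2 signal, pancreatic minus pituitary tumors (horizontal axis), with 95% confidence interval for all 13 probe sets of 7 islet factors, filled circles for the probe set that stands for the gene, open squares for further probe sets, black where the adjusted p is at most 0.05. Foxa2 at 4.55 has a narrow interval, both Isl1 probe sets lie near it with wide intervals, and Pax6 ranges between 0.31 and 3.23 over its 5 probe sets.

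The 5 Pax6 probe sets did not give the same picture. At 1452526_a_at the lowest, median and highest signals were 4.79, 8.00 and 8.98 in the pancreatic tumors, against 4.16, 4.09 and 5.76 in pituitary tumors 6, 7 and 8, a difference of 2.79 (SE 0.84) with adjusted p = 0.0863 in limma. At 1425960_s_at pancreatic tumors 10, 11 and 12 had 6.48, 6.72 and 6.58, whereas the other 6 had between 3.91 and 5.02 and the pituitary tumors between 3.93 and 4.06. Probe sets 1437816_at and 1456342_at stayed near background, with differences of 0.55 and 0.31 and adjusted p = 0.145 and 0.338.

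At 1419271_at the same tumors 10, 11 and 12 were in the middle of their group, with 10.13, 10.62 and 10.49. Relative to 1419271_at, the signal of 1452526_a_at was lower by 1.90, 1.64 and 1.74 units in tumors 10, 11 and 12, and by 2.24 to 3.55 units in the other 6. In pituitary tumors 6, 7 and 8 it was lower by 2.38, 1.28 and 2.86 units. Tumors 10, 11 and 12 had the smallest gap between the 5′ and 3′ control probe sets of beta-actin, -0.70, -0.57 and -0.87. The other pancreatic tumors had -1.54 to -3.48, and pituitary tumors 6, 7 and 8 had -1.51, -2.07 and -2.20. The Gapdh gaps of tumors 10, 11 and 12 were 0.12, 0.22 and 0.22, compared with -2.29 to -0.14 in the other pancreatic tumors. Tumor 5, with the widest gaps of -3.48 and -2.29, had the second lowest Pax6 signal at 1419271_at, the second lowest at 1452526_a_at and the highest, 6.33, at 1437816_at. The gap is a measure of how much of the transcript toward its 5′ end was labelled, and its part in the Pax6 values was not tested.

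**Figure D3:**
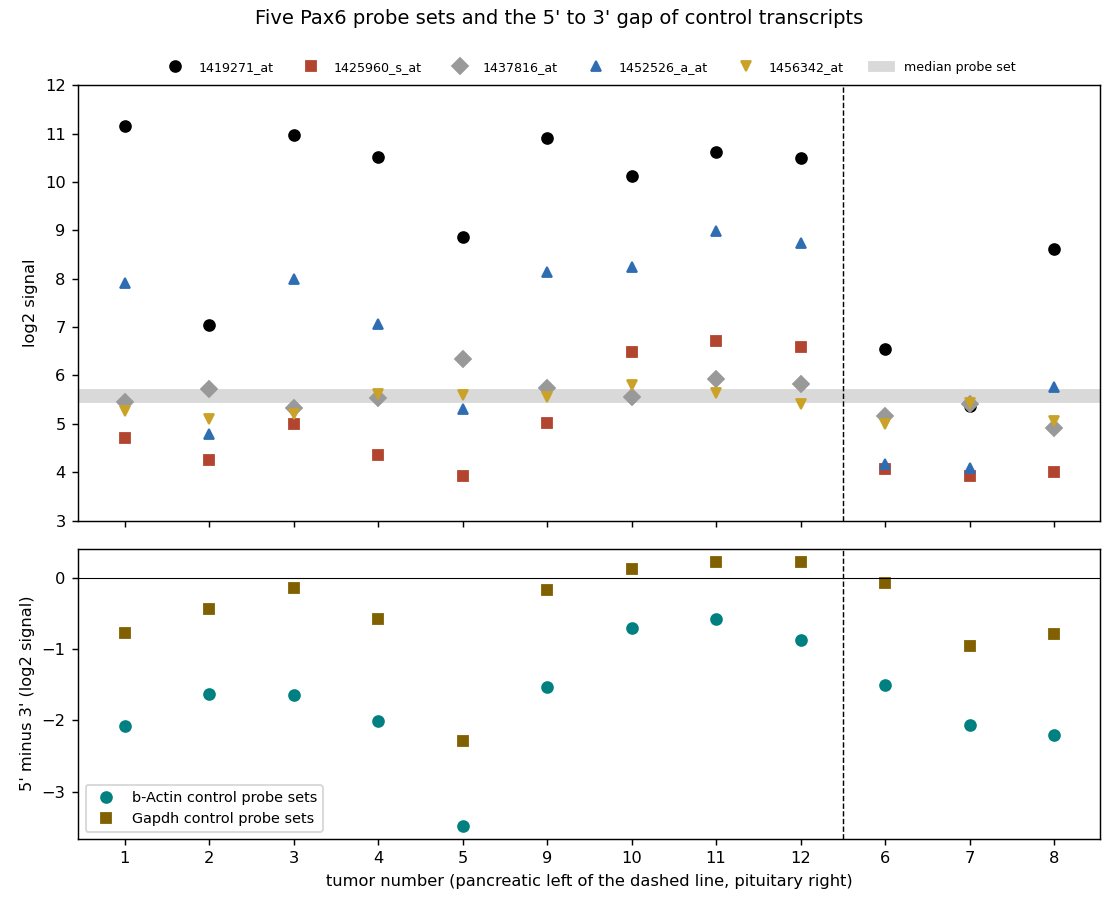
Top, log2 signal of the 5 Pax6 probe sets in each tumor, pancreatic tumors left of the dashed line and pituitary tumors right of it, with the median probe set as a grey band. Bottom, 5′ minus 3′ log2 signal of the beta-actin and Gapdh control probe sets in the same tumors. Probe set 1425960_s_at rises above the band only in tumors 10, 11 and 12, where beta-actin gaps are -0.87 to -0.57, and tumor 5 has the lowest gaps.

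Among the pancreatic tumors, tumor 2 was lowest in Pax6, Isl1 and Foxa2, but by unequal amounts. It lay 3.54 units below the median of the other 8 in Pax6, 3.24 in Isl1 and 2.75 in Nkx2-2, and 0.84 units below it in Foxa2. This tumor had the most liver transcripts: its mean over 6 hepatocyte genes was 14.09, compared with 11.16 and 11.52 in tumors 3 and 4 and 5.63 to 8.45 in the other 6, against 4.65 to 5.65 in the pituitary tumors. Albumin (Alb) was 15.01 in tumor 2. Foxa1, Gata6, Onecut1 and Hnf4a, which are also factors of hepatocytes, were at their highest in it, with 8.45, 8.41, 7.03 and 12.06. Foxa2, too, is a factor of hepatocytes as well as of islets. Not all endocrine pancreas factors were high in tumor 2. Hhex and Pdx1 were among those at their lowest there, with 10.99 and 6.61. The hepatocyte factors named here were picked after their values were seen. Which further factors also act in hepatocytes, Hhex among them, was not examined. The part of liver cells in these values was not tested. Tumors 3 and 4, with intermediate liver signal, had 10.98 and 10.52 for Pax6 and 8.55 and 9.00 for Nkx2-2, within the range of the 6 tumors with less liver signal. Isl1 was 12.04 in tumor 4, within that range, and 11.44 in tumor 3, below all 6. They also had the highest acinar means over 10 genes, 10.99 and 10.32, compared with 5.97 to 8.76 in the other 7, against 5.54 to 5.76 in the pituitary tumors.

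Tumors 9 and 11 were low in Nkx2-2, while Pax6, Isl1 and Foxa2 stayed well above background in both. They were 4.47 and 4.38 units below the median of the other 8 in Nkx2-2, and Pax6 was 10.91 and 10.62, Isl1 12.27 and 11.59, and Foxa2 10.44 and 10.00. Tumor 11 was also lowest of the 9 in Hnf4a (8.19) and Gata6 (4.94) and second lowest in Pdx1 (8.01), after tumor 2. Tumor 9 had 9.53, 6.63 and 9.86 for these 3 genes. Their liver means were 6.10 and 8.45 and their acinar means 6.17 and 7.62. The hormone genes of the 2 tumors did not fall together. Glucagon (Gcg) was 12.82 in tumor 9, the median of the 9, and 11.87 in tumor 11. Insulin (Ins2) was 10.82 in tumor 9 and 8.15 in tumor 11, and pancreatic polypeptide (Ppy) was 11.88 and 8.10. Tumor 11 was the second lowest of the 9 in both, after tumor 2.

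**Figure D4:**
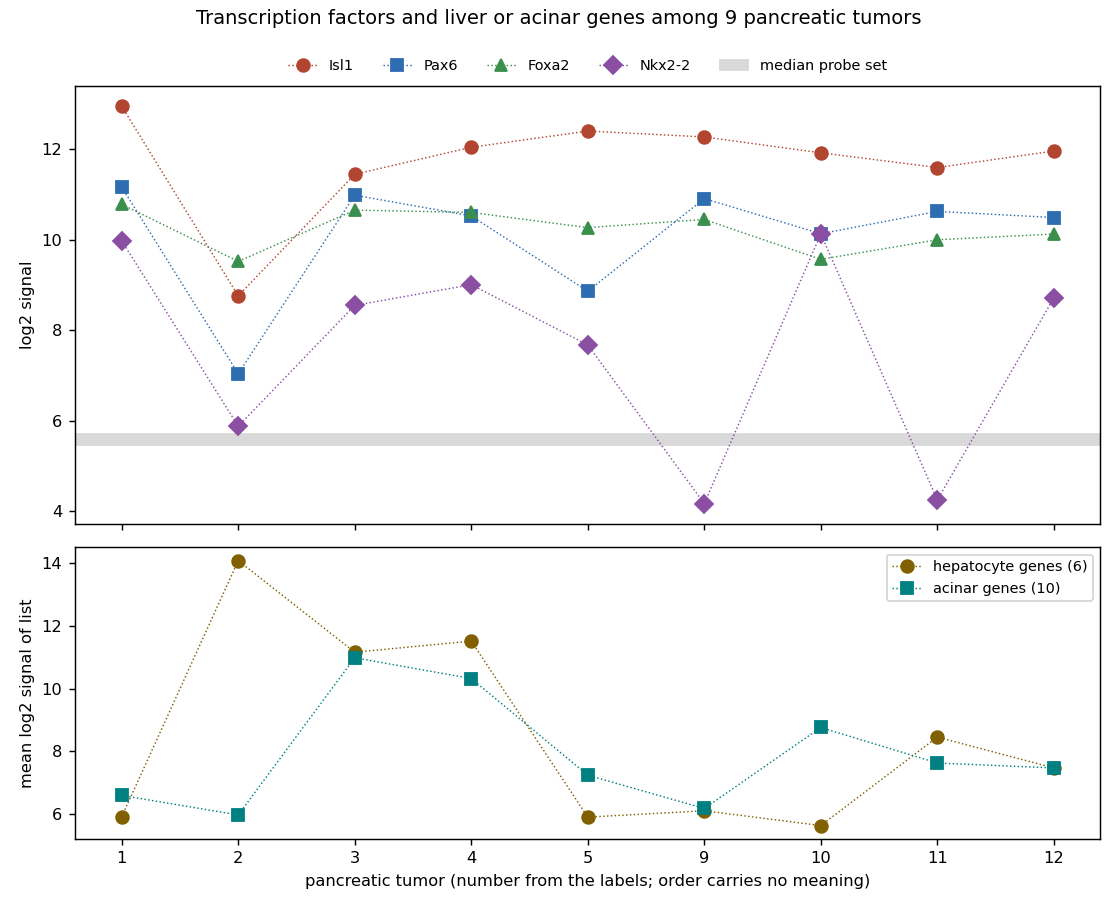
Top, log2 signal of Isl1, Pax6, Foxa2 and Nkx2-2 in each of the 9 pancreatic tumors, with the median probe set as a grey band; dotted lines only guide the eye. Bottom, mean log2 signal of 6 hepatocyte and 10 acinar genes in the same tumors. Tumor 2 combines the highest hepatocyte mean, 14.09, with the lowest Isl1 and Pax6, and Nkx2-2 falls below the band in tumors 9 and 11.

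Over the 9 pancreatic tumors, 21 pairs of these genes were correlated, and none passed Benjamini-Hochberg adjustment (smallest adjusted p = 0.270 for Pearson and 0.225 for Spearman, exact two-sided permutation of pairings). Pax6 and Foxa2 had r = 0.67 (exact p = 0.0386, adjusted 0.270) and rho = 0.80 (exact p = 0.0138, adjusted 0.225). Without tumors 2 and 5, the farthest from the median of Pax6, r was 0.85, without tumors 10 to 12 it was 0.96, and without tumor 2 alone it was 0.42. Pax6 and Isl1 had r = 0.78 (exact p = 0.0674, adjusted 0.314) and rho = 0.30 (exact p = 0.437, adjusted 0.834). That relation rested on tumor 2, without which r was -0.08. Nkx2-2 had r between 0.20 and 0.35 with Pax6, Isl1 and Foxa2.

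A search for like genes covered the 12278 genes whose mean over the 9 pancreatic tumors was above the median probe set. Among them, the genes whose signal was most like each factor over these tumors were sought, as a description with no test. For Pax6 they were Ncoa7 (r = 0.995), the myosin Myo5a (r = 0.993) and Rtl5 (r = 0.992), and these stayed at 0.986, 0.985 and 0.968 without tumor 2. Ncoa7 put the 9 tumors in the same order as Pax6, with 9.65 in tumor 1, 7.62 in tumor 5 and 6.09 in tumor 2, but it did not separate the groups, since pituitary tumors 6, 7 and 8 had 8.77, 8.22 and 9.20. For Isl1 they were the chromatin remodeller Smarca1 (r = 0.988), Pgbd5 (r = 0.987) and Sez6l2 (r = 0.986), at 0.915, 0.909 and 0.901 without tumor 2. For Foxa2 they were Tsr1 (r = 0.979), Fem1b (r = 0.969) and the zinc finger gene Zfp142 (r = 0.965). All of them share the 9 arrays and, for Pax6, Isl1 and Foxa2, a lowest value in tumor 2.

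The genes most like Nkx2-2 were Mchr1 (r = 0.942), Asb9 (r = 0.940) and Cdx2 (r = 0.925), which stayed at 0.937, 0.936 and 0.919 without tumor 2. They are the highest of 12278 genes over 9 tumors. An r of this size was also reached for Mnx1 (0.959), which was below background in every tumor. The r values alone therefore do not set these genes apart. Mchr1 and Asb9 moved little, between 5.81 and 6.68 and between 5.31 and 6.66. Cdx2, a homeobox factor of the gut epithelium, moved more. It was 8.88, 8.72 and 8.33 in tumors 1, 10 and 12, which also had high Nkx2-2, and 7.80, 7.22, 6.76 and 6.02 in tumors 5, 3, 4 and 2. Tumor 4 departed from the order of Nkx2-2, where its 9.00 lay above the 8.71 of tumor 12. In tumors 9 and 11, where Nkx2-2 was below background, Cdx2 was 5.05 and 5.12, also below background, and pituitary tumors 6, 7 and 8 had 4.81, 4.94 and 4.67. Its groups did not overlap, but the difference of 2.29 (SE 0.80) missed the threshold, with adjusted p = 0.135 in limma. Pax4, Neurog3 and Mnx1 were at or below background in most tumors, so that likeness to them has little content. Their closest genes were Rsu1 (r = 0.946), D16Ertd472e (r = 0.933) and Endog (r = 0.928) for Pax4. For Neurog3 they were Penk (r = 0.930), Ppp1r18 (r = 0.912) and Thbd (r = 0.876), and for Mnx1 Slc16a8 (r = 0.959), Ppp6r2 (r = 0.943) and Col20a1 (r = 0.930).

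Of 30 further transcription factors of the endocrine pancreas, 22 were measured. In the pancreatic tumors 3 were higher, 0 were lower and 19 did not pass, beside 1.61% of all genes called higher and 4.5% lower. At an unadjusted p under 0.05 the counts were 6 and 1, the 1 being Sox9. No share over all genes is given for these unadjusted counts. The median difference of the 22 was 0.68, beside 0.03 over all genes. The 3 were Hhex, a homeobox factor of delta cells, Pdx1, the homeobox factor of the pancreatic bud and of beta cells, and Hnf4a, a nuclear receptor of endoderm. Hhex had 10.99, 12.21 and 13.10 as lowest, median and highest in the pancreatic tumors, against 6.33, 4.88 and 5.14 in pituitary tumors 6, 7 and 8. Its difference of 6.66 (SE 0.40, adjusted p = 1.64e-06) was the largest of the list.

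Pdx1 had 6.61, 9.44 and 10.91 in the pancreatic tumors, against 3.86, 3.75 and 3.97 in pituitary tumors 6, 7 and 8, with a difference of 5.39 (SE 0.73, adjusted p = 0.0011). Tumor 2 was again lowest, and the call was lost only without both pituitary tumors 6 and 8 (adjusted p = 0.0913). Hnf4a had 8.19, 9.56 and 12.06, against 7.05, 6.88 and 6.86, with a difference of 2.69 (SE 0.60, adjusted p = 0.0254). The call was lost without moderation of the variance (adjusted p = 0.0565) and when any 1 pituitary tumor was left out (adjusted p = 0.106, 0.0632 and 0.115 without tumors 6, 7 and 8), and its highest value was that of the liver-rich tumor 2. Nkx6-1, a beta cell factor, and Onecut1 also kept the groups apart, with adjusted p = 0.161 and 0.200 (0.0490 for Nkx6-1 with array weights), though Nkx6-1 was below background in all pancreatic tumors.

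Neurod1 and Insm1, which Neurog3 turns on in the endocrine progenitor, did not pass the test over all 12 tumors. Neurod1, a basic helix-loop-helix factor that also acts in pituitary corticotropes and in neurons, was between 11.04 and 11.61 in 8 pancreatic tumors and 7.52 in tumor 2, against 9.35, 6.37 and 12.71 in pituitary tumors 6, 7 and 8 (difference 1.39, SE 1.11, adjusted p = 0.523). Its difference was -0.16 without pituitary tumor 7 and 3.01 without pituitary tumor 8, so its direction is not settled. Its highest value of all was in pituitary tumor 8, which also had the highest Pax6 of its group. Insm1, a zinc finger factor of neuroendocrine cells, was 6.56 in tumor 2 and 10.70 to 12.79 in the other pancreatic tumors, against 9.87, 11.05 and 9.50 in pituitary tumors 6, 7 and 8 (difference 0.99, SE 1.01, adjusted p = 0.628). Without pancreatic tumor 2 the Insm1 difference was 1.56 and passed, with adjusted p = 0.0480, and without pituitary tumors 6 and 8 it was 0.08. Both were high in tumors where Neurog3 itself was at background.

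**Figure D5:**
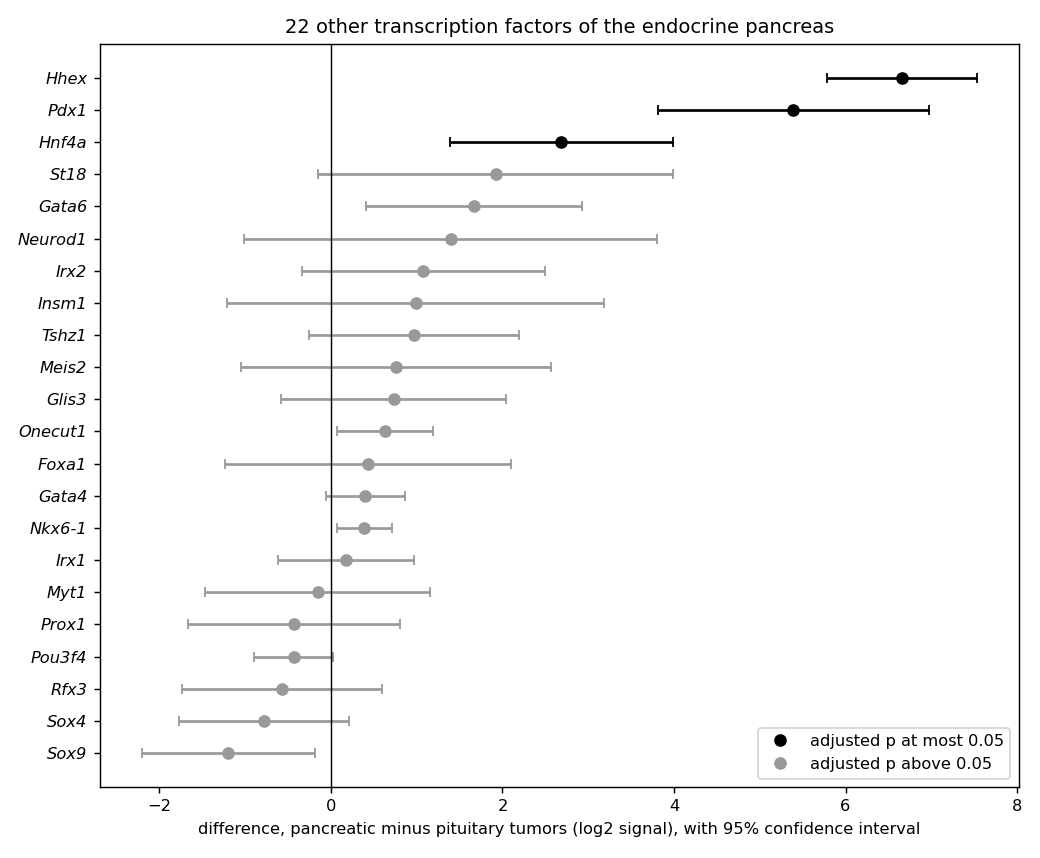
Difference in log2 signal, pancreatic minus pituitary tumors (horizontal axis), with 95% confidence interval for 22 other transcription factors of the endocrine pancreas, sorted by size, black where the adjusted p is at most 0.05. Hhex at 6.66, Pdx1 at 5.39 and Hnf4a at 2.69 pass the threshold, and the other 19 do not.

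Islet genes known to lie under these factors were examined last, with 16 of 20 measured. In the pancreatic tumors 6 were higher and 0 lower, beside 1.61% of all genes called higher and 4.5% lower. The median difference over the 16 was 2.13, beside 0.03 over all genes. Glucagon (Gcg) had 8.85, 12.82 and 14.41 as lowest, median and highest in the pancreatic tumors, against 6.38, 5.34 and 5.81 in pituitary tumors 6, 7 and 8, a difference of 6.53 (SE 0.93, adjusted p = 0.00163). Insulin (Ins2) had 8.08, 11.19 and 12.83, against 5.97, 6.25 and 5.48, a difference of 5.07 (SE 0.99, adjusted p = 0.0131). Somatostatin (Sst) lay between 13.65 and 15.10, against 11.93, 10.51 and 11.91, a difference of 3.41 (SE 0.34, adjusted p = 0.000118). Pancreatic polypeptide (Ppy) had 7.16, 12.00 and 14.21, against 5.94, 7.49 and 6.34, a difference of 4.99 (SE 1.34) that missed the threshold with adjusted p = 0.0557. Ppy passed with quantile normalization (0.0479), array weights (0.0030), the filter at the median probe set (0.0410), and without pancreatic tumor 2 (0.0102), tumor 11 (0.0343) or tumors 2, 3 and 4 (0.0312).

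The other genes called were Abcc8, the sulfonylurea receptor of the beta cell potassium channel, Iapp, the amyloid peptide released with insulin, and Hadh, a mitochondrial enzyme of fatty acid oxidation, with differences of 4.30, 2.37 and 1.67. All were above background in the pituitary tumors too. In pituitary tumors 6, 7 and 8 Abcc8 was 7.34, 7.58 and 7.37, Iapp 12.72, 11.39 and 12.08, and Hadh 11.28, 11.52 and 11.15. Tumor 2 had the lowest Gcg, Ins2, Sst, Ppy, Abcc8 and Iapp of the 9 pancreatic tumors, as it did Pax6, Isl1 and Pdx1. Not all islet genes were low there. Slc2a2 and Ttr were at their highest in tumor 2, with 11.46 and 14.69, as was Ghrl with 5.14, below background. Hadh was second highest there, with 13.30. The Ins2 call was lost without pituitary tumor 6 (adjusted p = 0.0669) or 8 (adjusted p = 0.0753), and that of Abcc8 without pancreatic tumors 10, 11 and 12 (adjusted p = 0.0552). Without both pituitary tumors 6 and 8, Sst and Iapp kept their calls, and Gcg, Ins2, Abcc8 and Hadh had adjusted p = 0.0866, 0.495, 0.292 and 0.0989. G6pc2, a glucose-6-phosphatase of beta cells, was 3.91 in tumor 11 and 5.03 to 9.07 in the other pancreatic tumors. Pituitary tumors 6, 7 and 8 had 3.69, 3.65 and 3.83. Low Nkx2-2, Ins2, Ppy and G6pc2 thus coincided in tumor 11 but not in tumor 9. There Nkx2-2 was 4.16, while G6pc2 was 6.82, Ins2 10.82 and Ppy 11.88.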

How the data were processed

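RNA of each tumor was hybridised to 1 Affymetrix mouse microarray. The authors deposited a table of log2 signals that holds 1 value for each probe set in each tumor, already normalized across arrays. Partek Genomics Suite is named for the normalization, with no version in the sources used here, and RMA is named for another analysis. Which program made the table is not stated. Its 12 columns were assigned to tumors through the labels, and no further normalization was applied. Of 45101 probe sets, 64 controls were left out of the tests. The platform annotation gave the symbols: 34945 probe sets have 1, 932 several and 9160 none in the table used. The 7 measured genes matched RefSeq by Entrez identifier with the same symbol.

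The 8 genes and the 11 lists of 133 genes were chosen with earlier results of these data known. The text names every probe set of the 8 genes, the called genes of 2 further lists, the hormone genes and, for each factor, the 3 genes with the highest Pearson r. Other genes of the lists and of the marker lists were chosen after their values were seen. For 18193 genes, 1 probe set with a single symbol stood for the gene, the one whose average over the 2 group means was highest.

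Pancreatic tumors were compared with pituitary tumors in limma 3.58.1 (lmFit, eBayes; R 4.3.3), with Benjamini-Hochberg adjustment over 45037 probe sets and a threshold of 0.05. The test was checked on simulated data. A single value was also tested by an exact permutation test over all 220 splits. List scores are mean log2 signals. Tables, permutation tests and plots were made in Python 3.11.15 with pandas 2.3.3, numpy 2.4.6 and matplotlib 3.10.9. The alternatives tried were array weights, median centring, quantile normalization, a robust prior with a trend, an unmoderated variance, the form of the ANOVA that the series description names, a filter at the median probe set, and leaving out single tumors or sets of tumors. The number of arrays limits the precision.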

Additional observations from a re-analysis of the deposited data

Results flagged for a closer look

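Of 23 probe sets tested over the 9 pancreatic tumors, 5 had a highest or lowest tumor set apart from the rest by Dixon's gap, and in each it was tumor 2. Chance sets a tumor apart in about 1 in 20 such groups, taken alone. The 23 share the same 9 arrays, and both Isl1 probe sets are among the 5. Those beyond the 13 of the islet factors belong to genes named above from the same data. The 5 of 23 therefore cannot be set against that rate. Tumor 2 was lowest in Isl1, with 8.76 at 1450723_at and 8.02 at 1422720_at. It was also lowest in Sst at 13.65 and in Abcc8 at 8.59. It was highest in Hnf4a at 12.06.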

How the results depend on the processing

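Foxa2 kept its call in every alternative run, with differences of 4.38 to 4.84 and adjusted p of at most 0.000421. Leaving out 1 tumor at a time gave 172 to 886 probe sets higher and 656 to 2000 lower, 1 to 5 of the 13 probe sets, 1 to 3 of the 7 genes, 2 to 4 of the other factors higher and 0 to 1 lower, and 5 to 8 of the islet genes. Without pituitary tumor 6, 172 probe sets were higher, and without pituitary tumor 8, 180. The differences then ran from 2.50 to 4.12 for Pax6 at 1419271_at (called without pancreatic tumor 2, pancreatic tumor 5 or pituitary tumor 8), from 2.50 to 3.34 at 1452526_a_at, and from 3.77 to 5.61 and 3.83 to 5.32 for Isl1 at 1450723_at and 1422720_at (lost without pituitary tumor 6 or 8).

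Array weights gave 1849 probe sets higher and 3179 lower, 5 of the 13 probe sets, and 7 other factors higher and 1 lower. Differences were then 3.77 for Pax6 at 1419271_at and 3.18 at 1452526_a_at, both called, and -0.0074 for Mnx1. An unmoderated variance gave 967 lower, and the filter at the median probe set 951. Without pancreatic tumors 10, 11 and 12, 214 were higher and 571 lower, with 1 of the 13 probe sets and 1 of the 7 genes, and Isl1 at 4.45 and 4.24 missed the threshold. Without pituitary tumors 6 and 8, where 1 pituitary tumor is left and its spread is taken from the pancreatic tumors, 61 were higher and 488 lower, with 1 of the 13 probe sets, 1 of the 7 genes, 1 other factor and 2 islet genes, and Isl1 was 2.32 and 2.54. Pax6 at 1419271_at passed with quantile normalization (3.37), median centring (3.28), a trended and robust prior (3.23), the filter (3.23) and without pancreatic tumors 2, 3 and 4 (3.52). The exact permutation test gave p = 0.00909 for its difference of 3.23, 0.0227 for 0.55 at 1437816_at, 0.0136 for 2.79 at 1452526_a_at and 0.0318 for 1.44 of Neurog3 at 1432034_at, none adjusted. The cause of these shifts was not tested, beyond fewer tumors or probe sets where some were left out. Counts for the 2 further lists were added after the data were seen. Pax4, Mnx1, Neurog3 and 2 Pax6 probe sets have no value under the filter. No paired analysis was possible because the sources do not give which tumors come from the same mouse.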
